A study of Mus musculus with 12 samples.

Results

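The replication-dependent histone genes encode the bulk of the histones on which DNA is wound: the linker histone H1 and the core histones H2A, H2B, H3 and H4. They were taken as every gene whose symbol in the deposited annotation begins with Hist1h, Hist2h, Hist3h or Hist4h, and 62 of the 21651 genes measured met this rule. They comprised 5 H1, 16 H2A, 17 H2B, 12 H3 and 12 H4 genes, covered by 71 probe sets, none of which named a second gene. Cluster 1 (the Hist1 genes, chromosome 13, positions 21807632 to 24026720 of build NCBIM37) held 49 of them, cluster 2 held 9, cluster 3 held 3 and cluster 4 held 1. Symbols are those of the annotation; the current name is given at first mention for genes described in detail.

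Histone genes of this kind are switched on together when a cell copies its DNA. They lack introns, and their mRNAs end in a stem-loop bound by Slbp instead of the poly(A) tail of other mRNAs. Many copies encode the same protein, so that their transcripts differ mainly outside the coding part. A few members, Hist1h1c and Hist1h2bc among them, are known also to give polyadenylated mRNA in cells that have stopped dividing, and Hist1h1t, Hist1h2aa and Hist1h2ba are known from testis.

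Signal was measured in white adipose tissue (WAT), which stores fat, and brown adipose tissue (BAT), which burns it. All mice were male C57 animals aged 4 months on chow, and all carried ob/ob, the leptin mutation that makes mice obese. One genotype was ob/ob alone; the other was ob/ob/Cidea-/-/Cidec-/-, which is labelled as also lacking a pair of lipid droplet proteins and is called the triple mutant here. Each genotype gave 3 arrays per tissue, so there were 12 arrays in 4 groups. The sources used here do not say how the alleles were made, which white depot was taken, how cDNA synthesis was primed from the total RNA, or whether the 3 arrays stand for 3 animals. A p-value therefore measures the spread of these samples alone, and that spread may be technical.

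Values are log2 signals, and the highest of the 45 antigenomic control probe sets, which match no mouse sequence, lay between 7.40 and 8.13 on the 12 arrays. Of the 62 genes, 34 were above that control on every array, 5 on some and 23 on none. For a group below the control a log2 change is no estimate of fold. Neither gene that the labels give as lacking was low on the triple mutant arrays. Signals of Cidec were 11.56 ± 0.31 in ob/ob WAT and 11.12 ± 0.11 in triple mutant WAT, and 10.92 ± 0.29 and 10.81 ± 0.02 in BAT (SD, n = 3). Cidea, a gene known from brown fat, gave 4.86, 5.55 and 5.51 in ob/ob WAT and 8.42, 8.95 and 10.03 in triple mutant WAT, a log2 change of 3.83 (SE 0.32, adjusted p = 6.54e-06). In BAT it gave 11.39, 11.44 and 11.51 against 11.29, 11.39 and 11.29 (−0.13, SE 0.32, adjusted p = 0.836). Its signals in triple mutant WAT and BAT thus went against the label, and the sources used here do not say whether either probe set lies in a deleted part. Triple mutant therefore stands throughout for the arrays so labelled, and each direction between genotypes rests on those labels.

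One array stood apart. Among the 34 histone genes above the control on every array, 32 were highest in ob/ob BAT on array 1, by a median of 1.01 log2 units over the next ob/ob BAT array, whereas 41% of all genes were highest there. The mean of 32 G2 and mitosis genes was 6.30 on that array and 5.21 and 5.12 on the other ob/ob BAT arrays. The mean of 11 macrophage markers was 9.80 there against 8.75 and 8.92, and that of 5 skeletal muscle markers was 8.05 against 11.23 and 11.00. Counts and leading genes of comparisons that use ob/ob BAT are therefore given with and without this array.

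The promoters of 1 gene of each class are shown because the values are ordered by class, and the genes chosen are among those the results turn on. Sequences are from RefSeq on build GRCm38.p6 and run from 250 bases before to 50 bases after the annotated start. Capitals mark, on either strand, the TATA box letters TATAAA, the CCAAT box letters CCAAT and ATTTGCA, the core of the octamer known from H2B promoters. The windows are those of Hist1h1c (now H1f2, chr13:23738557-23738856, plus strand), Hist1h2ak (H2ac15, chr13:21753863-21754162, minus strand), Hist1h2bg (H2bc8, chr13:23571150-23571449, plus strand), Hist1h3b (H3c2, chr13:23752095-23752394, plus strand) and Hist1h4d (H4c4, chr13:23581318-23581617, plus strand).
Hist1h1c: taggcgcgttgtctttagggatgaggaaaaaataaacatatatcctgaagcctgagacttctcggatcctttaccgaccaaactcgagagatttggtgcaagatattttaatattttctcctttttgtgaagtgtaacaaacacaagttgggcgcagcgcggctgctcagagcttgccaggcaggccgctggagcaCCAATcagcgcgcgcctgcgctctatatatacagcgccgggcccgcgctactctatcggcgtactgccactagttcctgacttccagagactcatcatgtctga
Hist1h2ak: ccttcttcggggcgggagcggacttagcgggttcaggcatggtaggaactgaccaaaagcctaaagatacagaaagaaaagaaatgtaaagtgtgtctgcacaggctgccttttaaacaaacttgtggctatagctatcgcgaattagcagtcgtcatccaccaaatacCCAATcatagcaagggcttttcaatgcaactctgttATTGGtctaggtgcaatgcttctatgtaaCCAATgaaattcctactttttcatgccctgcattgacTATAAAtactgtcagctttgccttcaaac
Hist1h2bg: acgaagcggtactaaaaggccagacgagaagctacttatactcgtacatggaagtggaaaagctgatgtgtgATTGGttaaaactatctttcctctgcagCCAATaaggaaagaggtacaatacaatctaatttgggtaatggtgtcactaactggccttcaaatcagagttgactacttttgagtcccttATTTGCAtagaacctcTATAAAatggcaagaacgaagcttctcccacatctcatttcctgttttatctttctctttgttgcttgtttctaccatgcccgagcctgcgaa
Hist1h3b: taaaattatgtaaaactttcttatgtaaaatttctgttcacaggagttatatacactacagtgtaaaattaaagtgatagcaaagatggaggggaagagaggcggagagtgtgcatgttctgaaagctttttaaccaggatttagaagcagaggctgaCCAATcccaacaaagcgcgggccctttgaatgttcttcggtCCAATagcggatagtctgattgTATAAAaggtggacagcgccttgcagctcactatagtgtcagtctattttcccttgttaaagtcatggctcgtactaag
Hist1h4d: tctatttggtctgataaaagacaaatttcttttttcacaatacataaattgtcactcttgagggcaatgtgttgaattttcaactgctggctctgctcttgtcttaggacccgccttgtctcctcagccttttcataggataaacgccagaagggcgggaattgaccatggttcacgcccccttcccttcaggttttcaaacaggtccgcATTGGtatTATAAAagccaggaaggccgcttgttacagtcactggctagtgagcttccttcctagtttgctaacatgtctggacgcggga

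A promoter was given for 56 of the 62 genes. TATAAA was present in 33 of the 56 (58.9%), against 13.6% of all 32851 promoter windows of that length. CCAAT was present in 48 of the 56 (85.7%), against 37.4% of all windows. All 5 H1, 16 H2A, 14 H2B and 10 H3 promoters held CCAAT, and 3 of the 11 H4 promoters did. ATTTGCA was found in 7 of 16 H2A and 7 of 14 H2B promoters and in none of the 5 H1, 10 H3 and 11 H4 promoters, against 4.02% of all windows. Windows of neighbouring H2A and H2B genes can overlap, as those of Hist1h2ah and Hist1h2bk do. A site in the shared part counts in both classes, so the windows are not all separate sequences. In the Hist1h3b window TATAAA begins at base −29 and CCAAT at bases −92 and −51, counted from the start. In Hist1h1c, CCAAT begins at −54 and no TATAAA was found, and in Hist1h2bg ATTTGCA begins at −59. In Hist1h2ak the marked TATAAA begins at base 22 after the annotated start, since letters were counted anywhere in a window. These letters describe the windows only; no binding was measured.

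In WAT, most H3 and H4 genes and 8 of 16 H2A genes fell on the arrays labelled triple mutant, while the linker histone gene Hist1h1c rose and 16 of 17 H2B genes did not pass. Of the 62 genes, limma called 30 lower and 1 higher (adjusted p under 0.05), where 16.7% of all genes were called lower and 17.6% higher. The median log2 change of the 62 was −0.62, against 0.04 over all genes. By class, 10 of 12 H3 genes fell (median −1.36), as did 9 of 12 H4 genes (median −0.75), 8 of 16 H2A genes (median −0.69), 1 of 17 H2B genes (median −0.39) and 2 of 5 H1 genes (median 0.13). Among genes above the control on every array, the Hist1 H3 genes moved nearly alike, as did the Hist1 H2A genes. These counts, and those in BAT, are thus not counts of independent measurements. Whether the signal of such a gene comes from that copy alone was not tested.

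**Figure D1:**
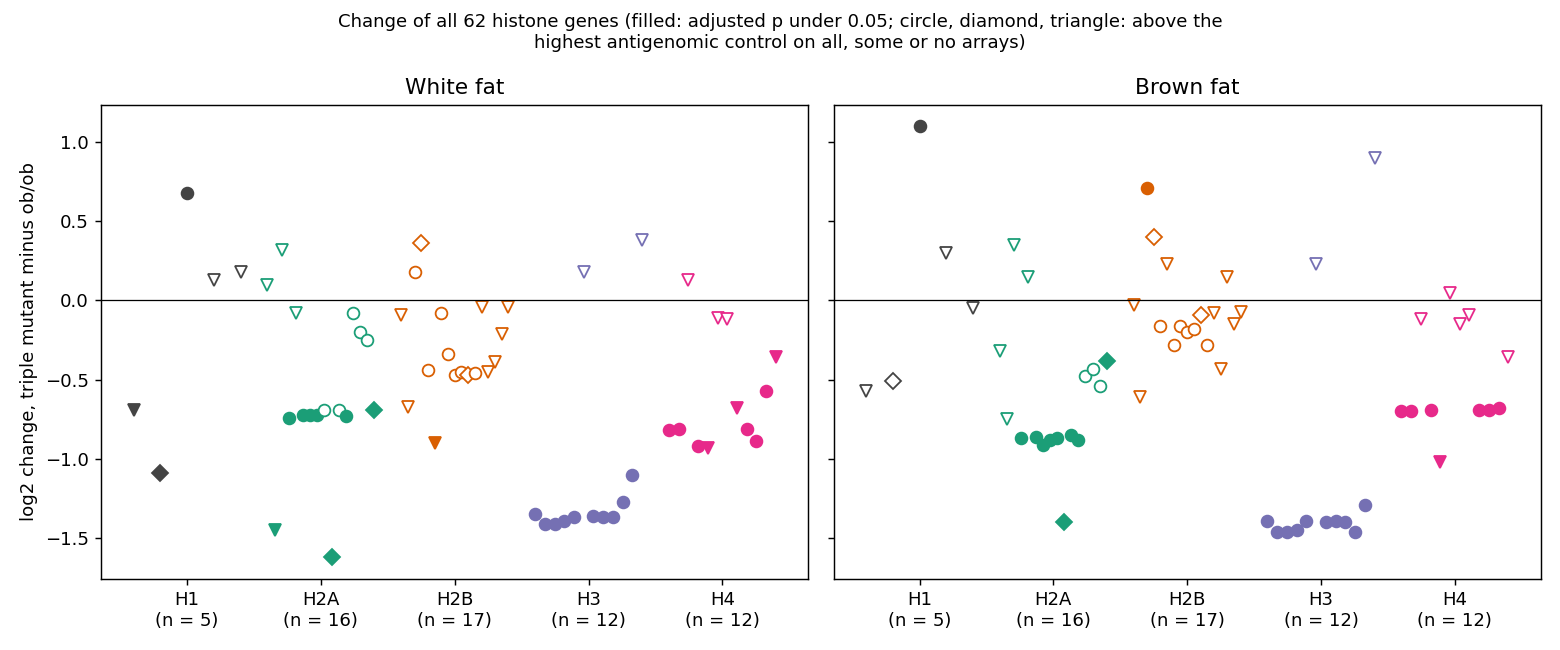
Log2 change from ob/ob to triple mutant for each of the 62 genes by histone class, in white fat (left) and brown fat (right). Filled symbols passed an adjusted p of 0.05, and circles, diamonds and triangles mark genes above the highest antigenomic control on all, some and no arrays. The H3 circles sit between −1.46 and −1.10 in both panels, the H2B symbols mostly nearer 0.

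In BAT, H3, H2A and H4 genes were lower and Hist1h1c and Hist1h2bc higher in the triple mutant. limma called 26 of the 62 genes lower and 2 higher, where 6.97% of all genes were called lower and 10.4% higher, and the median log2 change was −0.45 against −0.03 over all genes. H3 had 10 of 12 genes lower (median −1.40), H2A 9 of 16 (median −0.80) and H4 7 of 12 (median −0.68), with none of 17 H2B and none of 5 H1 genes lower. Without ob/ob BAT array 1, 18 genes were lower and 2 higher (4.83% and 7.68% of all genes), and the median was −0.20. The 10 H3 and 6 of the H4 genes were then lower, with class medians of −0.91 and −0.47, but only 2 of the 16 H2A genes, and the H2B median turned from −0.15 to 0.17. Without triple mutant BAT array 2, 16 were lower and 3 higher, and without triple mutant BAT array 3, 13 were lower and 2 higher. Shares of all genes called in these fits are not given here. Fewer calls among all genes and fewer among histone genes alone thus cannot be told apart. The fit shares 1 spread over all 12 arrays, and the SE of the Hist1h3b change in WAT was 0.32 with ob/ob BAT array 1 and 0.15 without it. Without ob/ob BAT array 1, 39 of the 62 genes were called lower and 1 higher in WAT (17% and 17.6% of all genes), at the same log2 changes.

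H3 packs with H4 at the core of the nucleosome. Hist1h3b (H3c2, chromosome 13, 23844249 to 23844659, NCBIM37) gave 10.67, 10.78 and 11.01 in ob/ob WAT and 9.74, 9.12 and 9.39 in triple mutant WAT. It gave 11.61, 10.14 and 10.11 in ob/ob BAT and 9.30, 9.06 and 9.13 in triple mutant BAT. In both tissues every ob/ob array was above every triple mutant array, and the single highest value was that of ob/ob BAT array 1. The log2 change was −1.41 (SE 0.32, adjusted p = 0.0052, 2.65-fold lower) for WAT and −1.46 (SE 0.32, adjusted p = 0.0109, 2.75-fold lower) for BAT. The BAT change was −0.96 (SE 0.16, adjusted p = 0.00514) without ob/ob BAT array 1.

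The 8 Hist1 H3 genes above the control on every array (Hist1h3a, b, c, d, e, g, h and i) are not 8 independent measurements. After each was centred on its own mean, they lay within 0.10 log2 units of each other on every array. Their log2 changes ran from −1.41 to −1.35 in WAT (adjusted p from 0.00467 to 0.00565) and from −1.46 to −1.39 in BAT (adjusted p from 0.0101 to 0.0126). The cluster 2 gene Hist2h3b (H3c13, chromosome 3) changed by −1.27 (SE 0.32, adjusted p = 0.00883) for WAT and −1.46 (SE 0.32, adjusted p = 0.01) for BAT. Its neighbour Hist2h3c1 changed by −1.10 and −1.29 (adjusted p = 0.0179 and 0.0169). In BAT without ob/ob BAT array 1 these 2 genes stood at −0.99 and −0.82 (adjusted p = 0.00686 and 0.0167). The remaining members of the class, Hist1h3f and Hist2h3c2-ps, which is named as a pseudogene, were below the control on every array and passed in neither tissue.

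Where a gene had a second probe set, it did not always follow. Hist1h3d was represented by a probe set over its coding part, which changed by −1.39 in WAT and −1.45 in BAT. A second, longer one (chromosome 13, 23666071 to 23668277) changed by −0.17 and 0.58. It averaged 5.91, below the highest control, and with the mean of the probe sets Hist1h3d no longer passed in BAT (log2 change −0.44).

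Among the H4 genes, Hist1h4d (H4c4, chromosome 13, 23673468 to 23673782) gave 10.87, 10.84 and 10.91 in ob/ob WAT and 10.21, 9.91 and 9.74 in triple mutant WAT. In BAT it gave 11.53, 10.90 and 10.90 against 10.54, 10.50 and 10.24. The groups did not overlap in either tissue. It fell by 0.92 on the log2 scale (SE 0.17, adjusted p = 0.00127) for WAT and by 0.69 (SE 0.17, adjusted p = 0.0173) for BAT. Hist1h4b changed by −0.81 (SE 0.18, adjusted p = 0.00349) and −0.70 (SE 0.18, adjusted p = 0.0186). Without triple mutant BAT array 3, neither passed in BAT (−0.60 and −0.62). Without ob/ob BAT array 1, both were at −0.48 in BAT (adjusted p = 0.0428 and 0.044).

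Hist2h4 (H4c14, chromosome 3, 96066859 to 96067256) had the smallest gap, 0.19, between ob/ob BAT array 1 and the next array among the H4 genes above the control on every array. It gave 8.99, 8.96 and 8.99 in ob/ob WAT, 8.53, 8.37 and 8.35 in triple mutant WAT, 9.53, 9.34 and 9.16 in ob/ob BAT and 8.75, 8.67 and 8.58 in triple mutant BAT. Each ob/ob array was above each triple mutant array of its tissue. Its log2 change was −0.57 (SE 0.10, adjusted p = 0.000881) for WAT and −0.68 (SE 0.10, adjusted p = 0.00147) for BAT, and −0.58 in BAT without ob/ob BAT array 1. The 2 probe sets of Hist1h4m had identical values on all 12 arrays, and the 6 H4 genes above the control on every array lay within 0.35 log2 units of each other after centring.

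**Figure D2:**
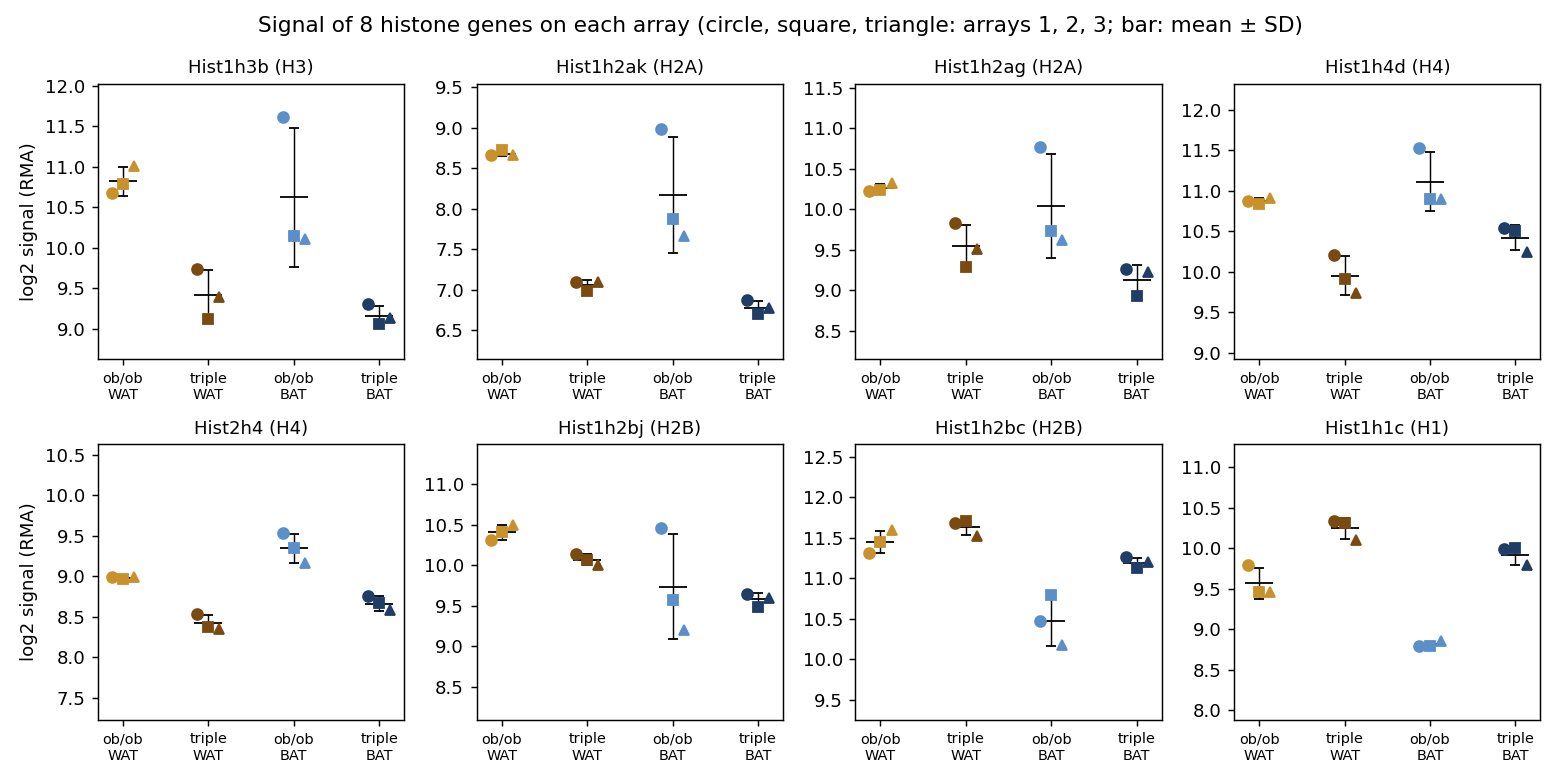
Log2 signal of 8 histone genes on each of the 12 arrays (circle, square and triangle are arrays 1, 2 and 3, the bar is the mean ± SD of 3 arrays), each panel spanning the same log2 range. Hist1h3b, Hist1h2ak, Hist1h2ag, Hist1h4d and Hist2h4 are lower in the triple mutant in both tissues, Hist1h1c is higher in both, and ob/ob BAT array 1 (light blue circle) lies high except in Hist1h2bc and Hist1h1c.

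H2A and H2B form dimers and are coded by neighbouring genes. Hist1h2ak (H2ac15, chromosome 13, 21845264 to 21845781) gave 8.66, 8.72 and 8.67 in ob/ob WAT against 7.09, 6.99 and 7.10 in the triple mutant. In BAT it gave 8.99, 7.87 and 7.67 against 6.87, 6.70 and 6.77. The groups were well apart in both tissues, and every triple mutant value was below the highest control of its array. The log2 change was −1.62 (SE 0.25, adjusted p = 0.000403) for WAT and −1.40 (SE 0.25, adjusted p = 0.00421) for BAT, and −0.99 in BAT without ob/ob BAT array 1. Hist1h2ab changed by −1.45 (SE 0.34, adjusted p = 0.00563) for WAT but was below the control on every array.

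The 7 Hist1 H2A genes above the control on every array had smaller log2 changes than these dimmer genes, whose changes are no estimate of fold. Hist1h2ag (H2ac11, chromosome 13, 22134346 to 22134818) gave 10.23, 10.24 and 10.32 in ob/ob WAT and 9.83, 9.29 and 9.51 in triple mutant WAT. In BAT it gave 10.77, 9.73 and 9.62 against 9.26, 8.93 and 9.22. The groups did not overlap in either tissue. It fell by 0.72 (SE 0.25, adjusted p = 0.0445) for WAT and by 0.91 (SE 0.25, adjusted p = 0.0294) for BAT on the log2 scale. These 7 genes lay within 0.08 log2 units of each other on every array after centring. Of them 5 passed in WAT (−0.74 to −0.69, adjusted p from 0.0445 to 0.0551) and all 7 in BAT (−0.91 to −0.85), but 1 of 7 in BAT without ob/ob BAT array 1 (−0.54 to −0.48).

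The cluster 2 H2A genes did not pass in either tissue. Hist2h2ac (H2ac20, chromosome 3, 96024284 to 96024803) gave 10.53, 10.46 and 10.60 in ob/ob WAT and 10.59, 10.03 and 10.22 in triple mutant WAT, and the groups overlapped. Its log2 change was −0.25 (SE 0.22, adjusted p = 0.447) for WAT and −0.54 (SE 0.22, adjusted p = 0.126) for BAT. Hist2h2aa1 changed by −0.08 (adjusted p = 0.849) and −0.48 (adjusted p = 0.199). The probe set used for Hist2h2aa1 is annotated on chromosome 13 (51298057 to 51298434) and its other 3 on chromosome 3, where the changes ran from −0.20 to 0.08 in WAT. Hist3h2a (H2aw), in cluster 3 on chromosome 11, changed by −0.69 (SE 0.10, adjusted p = 0.000239) for WAT and −0.38 (SE 0.10, adjusted p = 0.0232) for BAT, and lost its BAT call without ob/ob BAT array 1 (−0.32, adjusted p = 0.0827).

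Probe sets of some neighbouring H2A and H2B genes gave different values, and those of others lay closer together. In the pair Hist1h2ak and Hist1h2bn, whose probe sets lie 201 bases apart, the changes in WAT were −1.62 and −0.46 (adjusted p = 0.000403 and 0.138). In the pair Hist1h2ag and Hist1h2bj they were −0.72 and −0.34 in WAT and −0.91 and −0.16 in BAT. For Hist1h2ai and Hist1h2bm they were closer in WAT (−0.69 and −0.47) than in BAT (−0.87 and −0.09). For Hist2h2ac and Hist2h2be they were −0.25 and −0.39 in WAT and −0.54 and 0.15 in BAT. Hist1h2bj (H2bc11, chromosome 13, 22135099 to 22135479) gave 10.32, 10.41 and 10.50 in ob/ob WAT, 10.14, 10.07 and 10.01 in triple mutant WAT, 10.46, 9.57 and 9.20 in ob/ob BAT and 9.65, 9.49 and 9.60 in triple mutant BAT. The WAT groups did not overlap, yet the gene passed in neither tissue (adjusted p = 0.317 and 0.688). The 6 Hist1 H2B genes above the control on every array other than Hist1h2bc changed by −0.47 to −0.08 in WAT, and none passed. With ob/ob BAT array 1 left out, 5 of the 6 passed in WAT, and their median in BAT moved from −0.19 to 0.19. The difference between an H2A gene and its H2B neighbour was not itself tested. Hist1h2ag and Hist1h2ai are among the 7 Hist1 H2A genes that lay within 0.08 log2 units of each other after centring. Their values may therefore not belong to the 1 copy beside the H2B gene, which was not tested.

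Hist1h2bc (H2bc4, chromosome 13, 23776068 to 23784357) rose in BAT. It gave 11.31, 11.45 and 11.60 in ob/ob WAT and 11.68, 11.71 and 11.52 in triple mutant WAT, which overlap. In BAT it gave 10.48, 10.79 and 10.18 in ob/ob and 11.26, 11.13 and 11.20 in the triple mutant, with no overlap. The log2 change was 0.71 (SE 0.14, adjusted p = 0.00542, 1.64-fold) for BAT and 0.18 (SE 0.14, adjusted p = 0.354) for WAT, and the difference between them did not pass (0.53, SE 0.19, adjusted p = 0.0911). Ob/ob BAT array 1 was not its highest value, and without it the BAT change was again 0.71 (adjusted p = 0.017).

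Hist1h2bg (H2bc8, chromosome 13, 23663265 to 23663891) was the 1 H2B gene called in WAT. It gave 7.19, 7.04 and 6.67 in ob/ob WAT, 6.11, 5.98 and 6.13 in triple mutant WAT, 5.92, 5.56 and 5.72 in ob/ob BAT and 5.84, 6.02 and 6.02 in triple mutant BAT. Ob/ob WAT alone stood high, and the BAT groups overlapped. All 12 values were below the highest control of their arrays. This was a change of −0.90 (SE 0.14, adjusted p = 0.00032) for WAT and 0.23 (SE 0.14, adjusted p = 0.286) for BAT.

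Linker histones sit on the DNA between nucleosomes. Hist1h1c (H1f2, chromosome 13, 23830676 to 23832236) gave 9.79, 9.46 and 9.46 in ob/ob WAT and 10.34, 10.31 and 10.10 in triple mutant WAT. In BAT it gave 8.79, 8.80 and 8.86 against 9.99, 10 and 9.79. Every triple mutant array was above every ob/ob array of its tissue, and ob/ob BAT array 1 lay with the others. The log2 change was 0.68 (SE 0.11, adjusted p = 0.000495, 1.6-fold) for WAT and 1.10 (SE 0.11, adjusted p = 0.000263, 2.15-fold) for BAT, and 1.09 in BAT without that array.

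No other H1 gene was called higher. Hist1h1d, below the control on every array, changed by 0.13 (adjusted p = 0.557) for WAT and 0.30 (adjusted p = 0.183) for BAT. Hist1h1b (H1f5) gave 7.56, 7.52 and 7.33 in ob/ob WAT and 6.41, 6.08 and 6.65 in triple mutant WAT, a change of −1.09 (SE 0.22, adjusted p = 0.00239), and was above the control on 2 arrays, both of ob/ob WAT. Hist1h1a changed by −0.69 (SE 0.23, adjusted p = 0.0385) for WAT, below the control on every array. Neither passed in BAT (adjusted p = 0.144 and 0.123). The testis genes Hist1h1t, Hist1h2aa and Hist1h2ba were below the control on every array and passed in neither tissue, with adjusted p from 0.222 to 0.938.

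**Figure D3:**
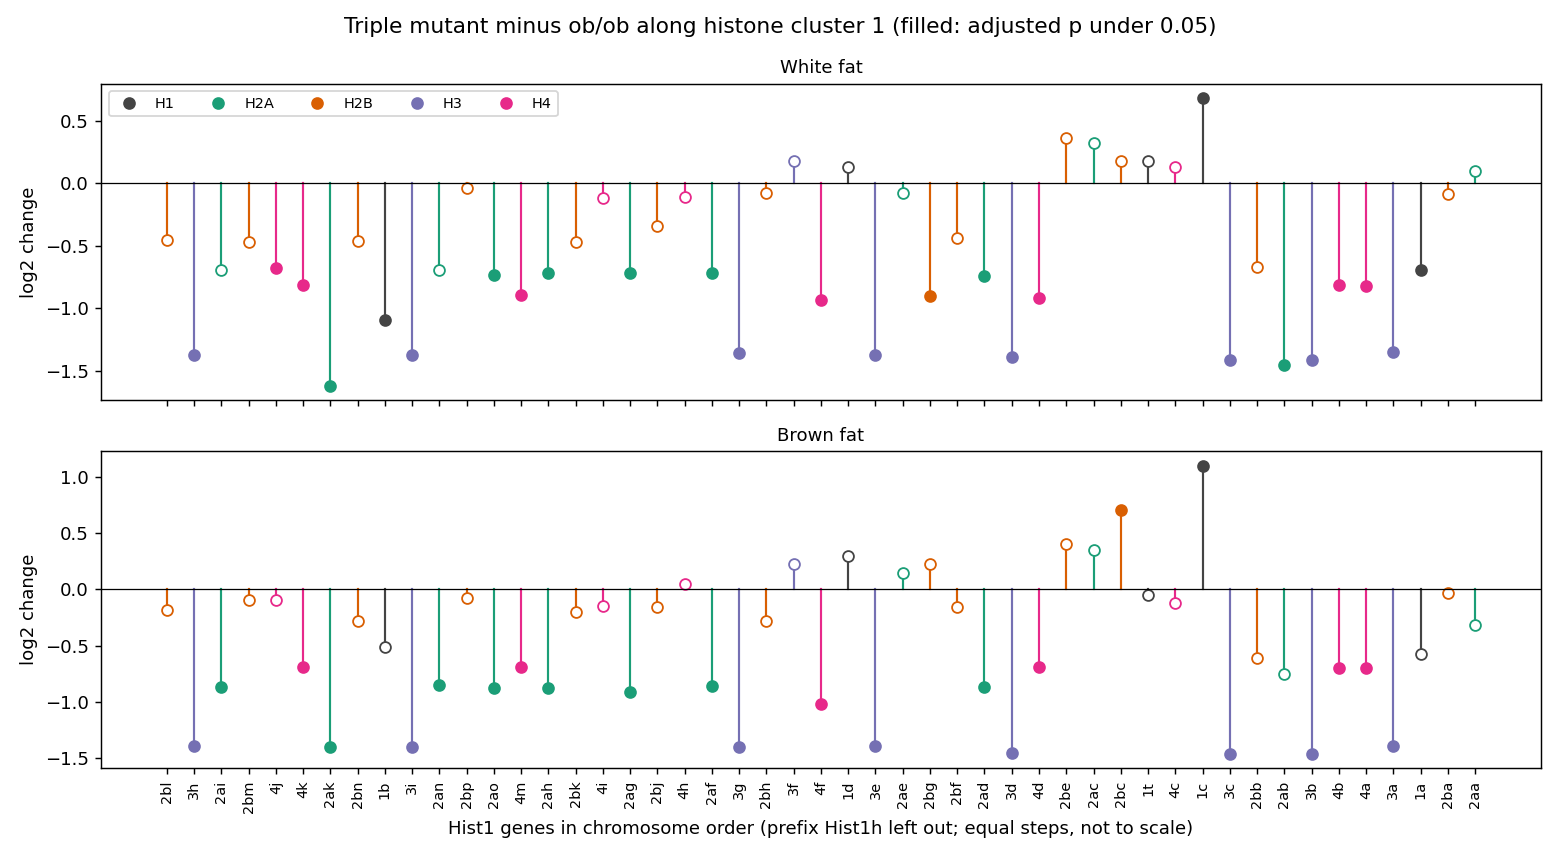
Log2 change from ob/ob to triple mutant for the 49 Hist1 genes in their order on chromosome 13, in white fat (top) and brown fat (bottom), coloured by class and filled where the adjusted p was under 0.05. Genes of different classes alternate along the chromosome, and the 8 Hist1 H3 genes that fell all lie between −1.46 and −1.35, with Hist1h1c at 0.68 and 1.10 beside Hist1h3c at −1.41 and −1.46.

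Genes whose probe set spans more than 1000 bases, beyond the coding part of a histone, gave other values than the rest. The 13 such genes had median log2 changes of 0.18 in WAT and 0.23 in BAT, with 2 lower and 1 higher in WAT and 2 lower and 2 higher in BAT. The 49 genes with shorter probe sets had medians of −0.69 and −0.68, with 28 lower in WAT and 24 in BAT and none higher, where 16.7% and 6.97% of all genes were lower. With ob/ob BAT array 1 left out, 37 were lower in WAT and 17 in BAT, and the BAT median was −0.27. Both genes that rose, Hist1h1c and Hist1h2bc, are among the 13, as is Hist2h3c1, which fell. Of the 13 genes 3 were above the control on every array, against 31 of the 49. Class, brightness and span of the probe set were not separated.

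Whether the effect of genotype differed between tissues was tested for each gene. limma called 1 of the 62 genes, Hist1h2bg (BAT minus WAT effect 1.12, SE 0.19, adjusted p = 0.00477), where 8.4% of all genes were called higher and 5.47% lower. For Hist1h3b the difference was −0.05 (SE 0.46, adjusted p = 0.954). Without ob/ob BAT array 1, 11 of the 62 were called, all with a smaller fall or a rise in BAT, against 10% of all genes called in that direction. The count was 2 without triple mutant WAT array 3 or ob/ob BAT array 2, fits for which shares of all genes are not given. The 11 included Hist1h2ak (0.64, adjusted p = 0.00715), 6 H2B genes and no H3 gene (Hist1h3b 0.44, SE 0.22, adjusted p = 0.207).

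Between tissues of ob/ob mice, 9 of the 62 genes were lower in BAT than in WAT and 1 higher, where 19% and 18.2% of all genes were called. Of the 9 lower, 7 were H2B genes, with Hist1h2bg at −1.23 (SE 0.14, adjusted p = 5.84e-05) and Hist1h2bc at −0.97 (SE 0.14, adjusted p = 0.000265). Hist1h1c changed by −0.75 (SE 0.11, adjusted p = 0.000327) and the dim Hist2h3c2-ps by −1.20 (SE 0.30, adjusted p = 0.00856). Hist1h2bj (−0.67, adjusted p = 0.0434) lost its call with the animal as a block (adjusted p = 0.0551) and in 13 of 18 alternatives in all (adjusted p up to 0.174). Hist1h2bm stood at −0.59 (adjusted p = 0.0422) and lost its call in 8 of 18 (adjusted p up to 0.173). Both kept it without ob/ob BAT array 1 (−1.03 and −0.85). The gene that was higher was Hist2h4 (0.36, SE 0.10, adjusted p = 0.015). The total called was 5 or 6 without any 1 of ob/ob WAT arrays 1, 2 and 3, triple mutant WAT array 1, ob/ob BAT array 2 or triple mutant BAT array 1, and without ob/ob BAT array 3 it was 4 lower and 3 higher. For these fits shares of all genes are not given. Without ob/ob BAT array 1, 34 of the 62 were lower in BAT and none higher (18.6% and 15.3% of all genes). These were 10 H2A, 10 H2B, 11 H3 and 3 H1 genes, with no H4 gene among them. Hist1h3b then changed by −0.70 (SE 0.16, adjusted p = 0.00738) against −0.20 (SE 0.32, adjusted p = 0.642) with all arrays.

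**Figure D4:**
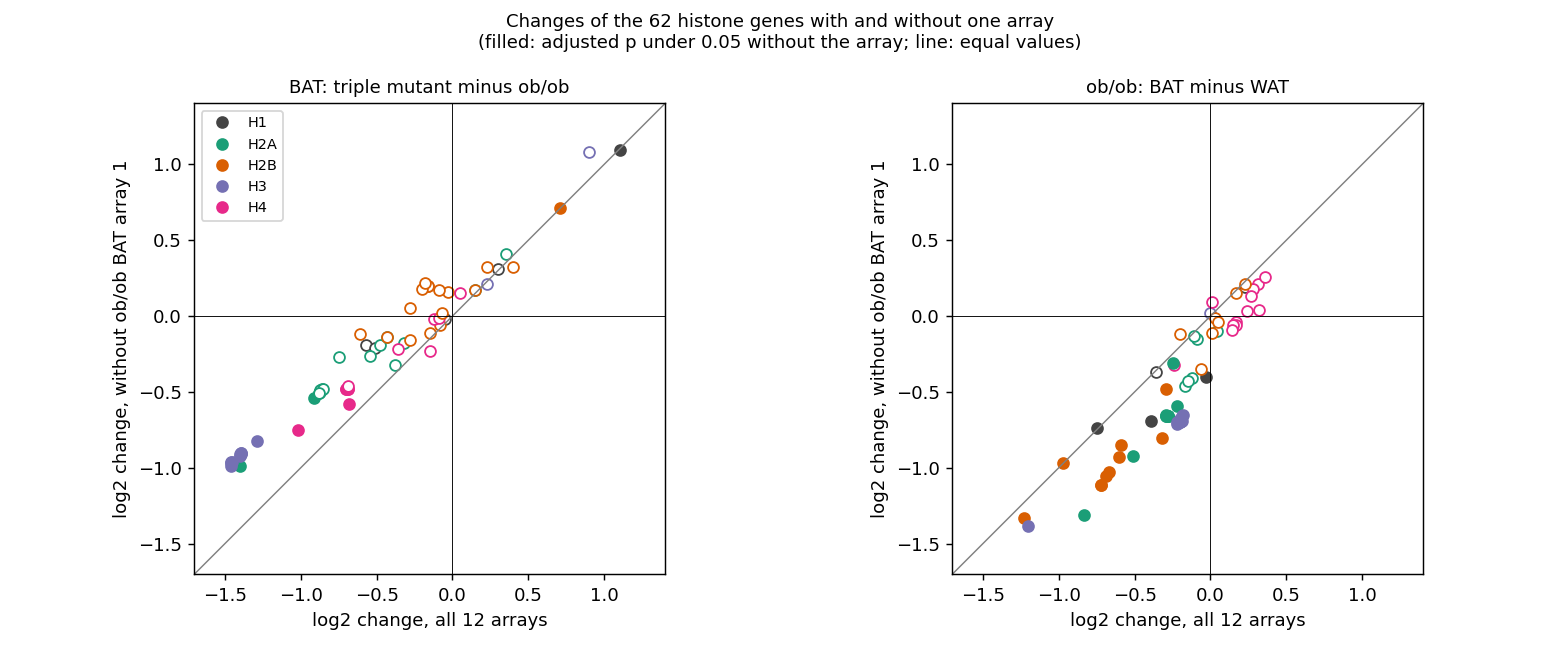
Log2 changes of the 62 genes with all 12 arrays (horizontal axis) and without ob/ob BAT array 1 (vertical axis), for triple mutant minus ob/ob in brown fat (left) and brown minus white fat in ob/ob (right). Filled symbols passed an adjusted p of 0.05 without the array. H3 moves from between −1.46 and −1.29 to a median of −0.91 on the left, while Hist1h1c lies at 1.10 and 1.09.

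Between tissues of triple mutants, 2 of the 62 genes were higher in BAT and none lower, where 6.45% of all genes were called higher and 7.93% lower. They were Hist2h2be (0.77, SE 0.16, adjusted p = 0.00849) and Hist1h4h (0.45, SE 0.12, adjusted p = 0.0261), both below the control on every array. The count was 1 without triple mutant WAT array 1 or 2 or triple mutant BAT array 3, and 4 without triple mutant WAT array 3. For these fits shares of all genes are not given. In the fit without ob/ob BAT array 1, 3 were higher and 8 lower (6.9% and 8.66% of all genes).

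Most factors that make and cut histone mRNA did not pass the test, nor did most of all genes (34.3% called in WAT and 17.4% in BAT). The counts of this and the other lists below stand beside 16.7% of all genes lower and 17.6% higher in WAT, and 6.97% lower and 10.4% higher in BAT. Of 22 genes of histone transcription and mRNA processing, 5 fell and 1 rose in WAT (median −0.04), and 1 fell and 2 rose in BAT (median −0.01; 1 rose and none fell without ob/ob BAT array 1). Slbp, which binds the stem-loop, gave 7.46, 7.52 and 7.45 in ob/ob WAT, 7.03, 6.82 and 7.24 in triple mutant WAT, 7.38, 7.11 and 7.12 in ob/ob BAT and 7.54, 7.58 and 7.62 in triple mutant BAT. It was lower in triple mutant WAT and higher in triple mutant BAT, with no overlap in either tissue, and above the control on 1 array. Slbp changed by −0.45 (SE 0.11, adjusted p = 0.00782) for WAT and 0.37 (SE 0.11, adjusted p = 0.0376) for BAT, and the difference was 0.82 (SE 0.16, adjusted p = 0.00763).

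Eri1, an exonuclease that trims the histone mRNA end, changed by −1.39 (SE 0.16, adjusted p = 5.96e-05) for WAT and 0.01 (SE 0.16, adjusted p = 0.965) for BAT. The difference between these effects also passed limma's test (adjusted p = 0.00425), as did that of Cpsf2 (adjusted p = 0.0218). E2f1, which switches on genes for DNA synthesis, changed by −1.34 (SE 0.18, adjusted p = 0.000143) for WAT and −0.61 (SE 0.18, adjusted p = 0.038) for BAT, where it no longer passed without ob/ob BAT array 1 (−0.34, adjusted p = 0.0546). Casp8ap2, needed to make histone mRNA, changed by −0.74 (SE 0.13, adjusted p = 0.00076) for WAT and −0.33 in BAT (adjusted p = 0.0981). Npat, the activator of histone genes at the onset of S phase, passed in neither tissue (−0.24, adjusted p = 0.0947, and 0.15, adjusted p = 0.357). Casp8ap2 and Npat were below the control on every array, and E2f1 was above it only on the 3 ob/ob WAT arrays.

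Of 20 histone chaperones, which carry histones to DNA, 11 fell and 1 rose in WAT (median −0.39), and 2 fell in BAT (median −0.07), or 1 without ob/ob BAT array 1, where 6.97% of all genes (4.83% without that array) were lower. Npm1 changed by −1.01 (SE 0.14, adjusted p = 0.000182) for WAT and −0.31 in BAT (adjusted p = 0.154). Nap1l4 rose in WAT (0.60, SE 0.08, adjusted p = 0.000136). Nap1l1 fell in both, by 0.69 and 0.80 on the log2 scale (adjusted p = 0.00716 and 0.00832). The replacement histones, also made outside S phase and mostly polyadenylated, had 7 of 13 genes lower and 1 higher in WAT (median −0.36) and none called in BAT (median −0.19). H2afz, the H2A.Z gene, changed by −0.75 (SE 0.14, adjusted p = 0.00126) for WAT and −0.24 (SE 0.14, adjusted p = 0.277) for BAT. H3f3b, an H3.3 gene, changed by −0.90 (SE 0.21, adjusted p = 0.00619) and −0.45 (SE 0.21, adjusted p = 0.181). The variant that rose in WAT was the linker histone gene H1fx, at 1.33 (SE 0.11, adjusted p = 7.46e-06), with 0.01 in BAT (adjusted p = 0.978).

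Genes of DNA replication and mitosis fell in triple mutant WAT as well. Of 48 genes of S phase and DNA replication, 26 fell and 2 rose in WAT (median −0.53), and 5 fell and 3 rose in BAT (median −0.26), where 6.97% of all genes were lower and 10.4% higher. Slbp and E2f1 are counted both in this list and in that of histone transcription and mRNA processing. Of 32 genes of G2 and mitosis, 29 fell in WAT (median −1.54) and 10 in BAT (median −0.64). Below the highest control on all arrays were 30 of the 48 S phase genes and 21 of the 32 G2 and mitosis genes. For these a log2 change is no estimate of fold. Rrm2, the S phase subunit of the enzyme that makes deoxynucleotides, changed by −2.13 (SE 0.28, adjusted p = 0.000115) for WAT and −0.95 (SE 0.28, adjusted p = 0.0364) for BAT, or −0.51 (adjusted p = 0.0213) without ob/ob BAT array 1. It was above the highest control only on the 3 ob/ob WAT arrays. Mki67, a marker of dividing cells, gave 8.75, 8.73 and 8.54 in ob/ob WAT, 5.70, 5.74 and 6.02 in triple mutant WAT, 8.39, 6.54 and 6.52 in ob/ob BAT and 5.63, 5.45 and 4.93 in triple mutant BAT. Ob/ob BAT array 1 was near the ob/ob WAT arrays, and the other BAT arrays were below the highest control. Without that array the S phase list had 2 lower and 5 higher in BAT (median −0.06) and the mitosis list 10 lower and 1 higher (median −0.28), beside H3 at a median of −0.91.

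**Figure D5:**
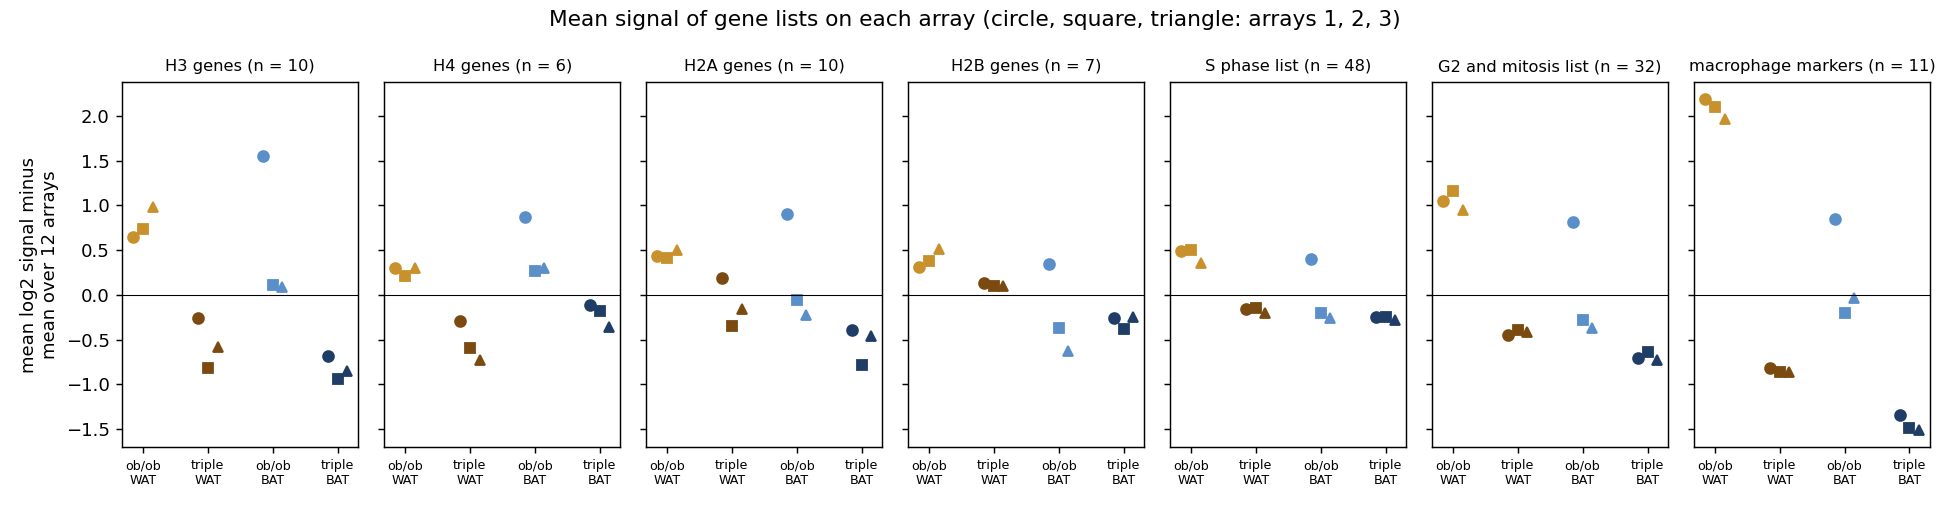
Mean log2 signal of each gene list on each array, less its mean over the 12 arrays (circle, square and triangle are arrays 1, 2 and 3). H3, H4, H2A and H2B panels hold the members above the highest control on every array. Macrophage markers are highest in ob/ob WAT, the H3, H4 and H2A genes on ob/ob BAT array 1.

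Markers of macrophages, which gather in obese fat and can divide there, fell between genotypes as H3 and H4 genes did. All 11 were lower in the triple mutant in both tissues (median log2 change −2.32 in WAT and −1.50 in BAT, and −1.29 in BAT without ob/ob BAT array 1). Their mean signal was 10.92 to 11.14 in ob/ob WAT, 8.09 to 8.14 in triple mutant WAT, 8.75 to 9.80 in ob/ob BAT and 7.44 to 7.61 in triple mutant BAT. Between tissues of ob/ob mice they differed by a median of −1.63, with 11 of 11 lower in BAT, beside −0.20 for H3 and 0.21 for H4. These medians were −1.89, −0.70 and 0.04 without ob/ob BAT array 1. Between genotypes in BAT no H2B gene was lower, and the H2B median without that array was 0.17. Of the mast cell markers 4 of 5 were lower in triple mutant WAT, and 6 of 6 brown adipocyte markers, Cidea among them, were higher there (none passed in BAT). Of the fibroblast and preadipocyte markers 3 of 5 were lower in each tissue (medians −0.50 in WAT and −0.47 in BAT). Higher in WAT were 5 of 6 adipocyte markers, a list that holds Cidec, 5 of 5 erythroid and 3 of 5 endothelial markers, and in BAT none, 2 and 1 of these, with 1 endothelial marker lower. No skeletal muscle marker passed between genotypes. No more than 1 T and NK cell or neutrophil marker passed in a tissue and no B cell marker did, and 6 of 7 T and NK cell, 5 of 5 B cell and 5 of 5 neutrophil markers were below the highest control on all arrays. In whole tissue fewer cells of a type and less RNA per cell cannot be told apart, and the part of these cells in the histone changes was not tested.

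A list of 63 small nucleolar RNA genes, chosen after the histone values were seen because these RNAs lack a poly(A) tail too, had 14 lower and 6 higher in WAT (median −0.11) and 5 lower and 5 higher in BAT (median −0.06), beside 16.7% lower and 17.6% higher of all genes in WAT and 6.97% and 10.4% in BAT. The BAT counts were 1 lower and 3 higher without ob/ob BAT array 1. Of these genes 39 were below the highest control on all arrays.

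The authors' deposited table of genes changed in WAT lists 38 histone probe sets of 34 genes among 5945 probe sets, 37 of them lower and 1 higher, where 53.2% of all listed are lower. The authors' deposited table for BAT lists 3 among 1164: Hist1h1c at a log2 change of 1.15, Hist2h4 at −0.59 and Hist3h2a at −0.20. Of all listed there 71.9% are higher and 28.1% lower. The Hist3h2a value is that of a second probe set, not of the one used above. In the authors' deposited table Hist1h3b stands at −1.34 in WAT and is not listed in BAT. These tables do not say from which arrays the folds were computed, and 12 array columns of the authors' expression table matched no label of the samples described here, so the folds may come from other arrays. The sources used here do not state by which rule genes were listed.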

How the data were processed

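Mouse fat RNA was hybridised to 12 Affymetrix arrays, and the values used are log2 signals deposited by the authors for 35556 probe sets. Per the submitters' processing notes, RMA and limma were used, with no version stated. RMA adjusts background, quantile normalizes and summarises probes. The fold ratios in the authors' tables of changed genes are used as log2 changes only, as deposited. In the authors' expression table, array values in 12 columns matched no sample label and were left out, and only symbols and positions (build NCBIM37) were taken.

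Of 28350 main probe sets, 25004 named 1 gene, 2 several and 3344 none. A gene was represented by its probe set with the highest mean. limma 3.58.1 in R 4.3.3 was fitted to all 12 arrays with 4 group means (8 residual and 3.47 prior degrees of freedom), two-sided, with Benjamini-Hochberg adjustment over 21651 genes and calls at 0.05. On simulated data with known changes the fit was tested first. No p was adjusted over a list. The number of arrays, 3 a group, limits the precision. Plots used Python 3.11.15 and matplotlib 3.10.9.

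The members, lists, tests and alternatives were chosen with earlier results of these data known. Genes were named by rule. It took the 2 with the highest mean in each class, called genes with the largest changes, and genes above the control on every array. It also took testis histones and, of other lists, the genes with the smallest p. Hist1h1a, Hist1h1d, Hist1h3f, Hist3h2a and Cpsf2 were added after their values were seen. Array numbers recur in the titles. Across tissues, arrays of 1 genotype and number deviated together over genes (r from 0.15 to 0.22), so the animal was a block in an alternative fit; across genotypes they did not (r from −0.43 to 0.11). Other alternatives left out each array, used 6 arrays, changed the normalization, filtered dim genes (mean under 5), averaged probe sets or changed the prior.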

Additional observations from a re-analysis of the deposited data

Results flagged for a closer look

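The effect of genotype differed between tissues, by limma's test of the difference itself, for Hist1h2bg among the histone genes, with a log2 difference of 1.12 (BAT effect minus WAT effect, SE 0.19, adjusted p = 0.00477). All 12 of its values were below the highest antigenomic control, so 1.12 is a difference of dim signals and not of folds. Of the 22 genes of histone transcription and mRNA processing, 3 were called for this difference: Eri1, Slbp and Cpsf2. All 3 were called higher, where 8.4% of all genes were called higher and 5.47% lower, or 13.9% in either direction. The count alone therefore does not set this list apart from all genes. Eri1 had the largest difference and the smallest adjusted p of the 3, and neither Eri1 nor Cpsf2 passed between genotypes in BAT. Slbp differed by 0.82 (SE 0.16, adjusted p = 0.00763), lower in triple mutant WAT on 3 of 3 arrays and higher in triple mutant BAT on 3 of 3. Without ob/ob BAT array 1 the differences of Hist1h2bg and Slbp were 1.22 (adjusted p = 0.00232) and 0.91 (adjusted p = 0.00301).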

How the results depend on the processing

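The counts of called histone genes depended mostly on which arrays entered the fit. Leaving out 1 array gave 24 to 40 called genes in WAT, 15 to 31 in BAT, 1 to 11 for the difference between tissues, 5 to 34 between tissues of ob/ob and 1 to 11 between tissues of triple mutants. The highest counts for the last 3 came without ob/ob BAT array 1, and the lowest in BAT without triple mutant BAT array 3 (13 lower and 2 higher). Among fits with 1 array left out, shares of all genes called are given only for that without ob/ob BAT array 1. The other counts therefore do not set histone genes apart from all genes. With the 6 arrays of a tissue or genotype alone, 17 were called in BAT, 5 between tissues of ob/ob and 7 between tissues of triple mutants; in WAT 41 were called. With arrays centred on their median, 4 were called for the difference between tissues. With the replicate block, which takes arrays of 1 genotype and number as 1 animal, the counts were 31, 28, 1, 8 and 2 in the order WAT, BAT, difference, tissues of ob/ob and of triple mutants, and Hist1h2bj between tissues of ob/ob was the named call it changed. Group medians over the 62 genes moved by less than 1 SD when arrays were centred. Of 42 called changes of named genes, 35 kept their call under every alternative run, and none changed direction in 786 combinations of change and alternative. Quantile normalization within a tissue was not run for comparisons between tissues, and 6 arrays alone cannot give the difference between tissues. Signals below the highest control, as for 23 of the 62 genes on every array, limit those genes to a statement that they differ.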
